A study of Mus musculus with 32 samples.

Results

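The regions described here are stretches of the mouse autosomes that carried a called H3K9me3 peak in male germ cells at postnatal day 3 (P3) and in no earlier list. They were chosen by the peak calls themselves. The autosomes were divided into 1 kb bins, and a bin was called in a list when at least 50% of it lay in peaks of that list. A bin was P3-only when it was called in both P3 lists and in none of the 6 lists of the earlier stages, and adjacent P3-only bins were joined into runs. This gave 14597 bins in 11425 runs, out of 2397450 autosomal bins between the first and the last peak of each chromosome (0.609%) and out of 233216 bins called in both P3 lists (9.73% of all bins). The presence of these bins at P3 and their absence before are therefore the definition of the set and not a result.

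Histone H3 lysine 9 trimethylation was mapped by ChIP-seq in germ cells taken from testes of Mvh-Venus transgenic mice, in which a fluorescent reporter marks germ cells. The stages were E13.5, E16.5, P0 and P3, and at each stage the animals were either Morc1 (+/-), called het, or Morc1 (-/-), called KO, so no group was wild type for Morc1 and all groups carried the transgene. Each of the 8 groups combined 2 H3K9me3 samples in 1 list of peaks, and 16 further samples with an antibody against histone H3 had no list used here. The lists give positions without heights, so there was no replicate error, no read depth and no test between lists, and 0 kb called means only that no peak was called. Expression was not part of these lists, so the identity of the sorted cells was not checked against marker genes. The lists held between 52628 and 93523 peaks each outside the mitochondrial genome, with 81140 in P3 het and 86238 in P3 KO.

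H3K9me3 is the mark of constitutive heterochromatin. It is written by SETDB1 and the SUV39H enzymes, is bound by HP1 proteins, and in germ cells lies mainly over retrotransposons, satellite repeats and clusters of zinc finger and chemoreceptor genes. Male germ cells at these stages are gonocytes, also called prospermatogonia. They arrest in the cell cycle in the fetal testis, regain DNA methylation before birth and resume division in the first days after it. MORC1 is a germ cell ATPase of the MORC family, known for its part in silencing transposons in these cells.

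Few of the newly called bins lay at gene starts, and the 5 gene starts in the longest of them are shown as sequence because they let the base composition be read directly. Of 31396 RefSeq promoter windows, each running from 250 bases before to 50 bases after a gene's start, 72 lay wholly in P3-only bins (0.229%), 23 of protein-coding genes and 49 of lncRNAs. The windows below are on GRCm38.p6, the assembly whose UCSC name is mm10, and are written 5′ to 3′ on the gene's own strand, which is the minus strand in all 5. Capitals mark CG dinucleotides, the sites of DNA methylation in mammals. All 300 bases of 4 of them were called in both P3 lists. In the other, Gm39735, 300 bases were called in P3 het and 184 in P3 KO. No base of the 5 was called in an earlier list. Gm39454 (chr9:118850944-118851243) and C330026H20Rik (chr19:41011629-41011928) are lncRNA genes with starts in runs of 5 kb. Gm39735 (chr1:188550505-188550804), a lncRNA gene, Sytl1 (chr4:133263038-133263337), which encodes a synaptotagmin-like protein of vesicle trafficking, and Sult6b2 (chr6:142804417-142804716), a sulfotransferase gene, start in runs of 4 kb.
Gm39454: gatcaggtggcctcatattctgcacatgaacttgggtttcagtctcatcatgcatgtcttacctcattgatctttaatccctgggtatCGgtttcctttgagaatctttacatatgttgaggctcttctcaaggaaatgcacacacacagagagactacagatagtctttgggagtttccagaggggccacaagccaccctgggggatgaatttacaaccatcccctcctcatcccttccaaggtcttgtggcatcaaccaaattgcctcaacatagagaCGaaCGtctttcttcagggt
C330026H20Rik: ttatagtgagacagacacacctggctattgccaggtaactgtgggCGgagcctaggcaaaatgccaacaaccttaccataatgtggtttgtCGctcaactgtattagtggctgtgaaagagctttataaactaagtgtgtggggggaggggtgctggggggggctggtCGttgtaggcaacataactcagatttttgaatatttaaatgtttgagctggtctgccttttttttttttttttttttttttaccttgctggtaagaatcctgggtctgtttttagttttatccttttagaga
Gm39735: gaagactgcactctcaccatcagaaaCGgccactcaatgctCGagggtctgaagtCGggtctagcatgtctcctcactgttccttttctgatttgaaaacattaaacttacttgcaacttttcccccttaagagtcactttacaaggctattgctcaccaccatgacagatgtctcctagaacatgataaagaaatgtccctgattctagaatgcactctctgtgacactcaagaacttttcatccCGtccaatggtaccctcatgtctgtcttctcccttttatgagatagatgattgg
Sytl1: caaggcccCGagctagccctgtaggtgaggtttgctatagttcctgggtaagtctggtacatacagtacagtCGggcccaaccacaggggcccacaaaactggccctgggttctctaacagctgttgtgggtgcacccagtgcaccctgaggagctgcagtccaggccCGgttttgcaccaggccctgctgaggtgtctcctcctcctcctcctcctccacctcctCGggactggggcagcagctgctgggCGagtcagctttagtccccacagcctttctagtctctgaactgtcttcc
Sult6b2: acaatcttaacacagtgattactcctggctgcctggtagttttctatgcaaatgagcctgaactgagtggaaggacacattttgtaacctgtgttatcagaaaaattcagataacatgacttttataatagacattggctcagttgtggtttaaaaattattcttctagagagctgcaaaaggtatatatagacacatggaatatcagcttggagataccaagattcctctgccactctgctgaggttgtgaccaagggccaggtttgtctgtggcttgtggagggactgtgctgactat

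The shown windows held 3 CG dinucleotides in Gm39454, 3 in C330026H20Rik, 4 in Gm39735, 5 in Sytl1 and 0 in Sult6b2, and their GC content was 46.3%, 41.7%, 43.7%, 60.0% and 41.0%. They were thus CG-poor, unlike the CpG island starts of most housekeeping genes. The same held for the whole set of 72, with a median of 3 CG per window against 7 in all 31396 windows. Only 2 of the 72 (2.78%) had 10 or more CG, against 44.0% of all windows. Those 2 belonged to Edc3, an mRNA decapping factor gene with 13 CG, and Hspa12b, an HSP70 family gene with 19 CG. Their windows were called over 300 bases in P3 KO and over only 228 and 77 bases in P3 het. CG-poor starts were also the rule where the P3 call was not new: of 1108 windows lying wholly in bins called in both P3 lists and in an earlier list, 3.25% had 10 or more CG. Among 54 windows wholly in bins called at P0 only, 22.2% did.

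Short motifs were counted in the same windows on both strands as a description of the letters present. GGGCGG, the core of the GC box, was in 8.33% of the 72 windows and in 36.0% of all windows. TCCCGC, an E2F-like element that can share bases with GGGCGG, was in 1.39% and 20.2%. TATAAA was in 20.8% and 13.6%. Because 49 of the 72 windows are lncRNA starts, the 23 protein-coding windows were also set beside all protein-coding windows. There the shares were 17.4% and 47.0% for GGGCGG, 4.35% and 26.3% for TCCCGC, 21.7% and 12.7% for TATAAA, and 8.70% and 57.9% for 10 or more CG. The first value of each rests on few windows, 4, 1, 5 and 2 of the 23. Coding windows in P3 bins called earlier gave 5.45%, 2.04%, 36.1% and 2.04% in the same order. For CCAAT the direction depended on this choice, with 44.4% and 37.3% over all windows and 34.8% and 38.1% over protein-coding ones. It did so too for the E-box CACGTG, with 4.17% and 7.14% over all and 8.70% and 7.89% over protein-coding windows, where 8.70% is 2 windows. Of the shown windows, C330026H20Rik held GGGCGG and TATAAA, Gm39735 held CCAAT, and Sult6b2 held CCAAT and TATAAA. A window inside a P3-only bin was not always called itself. All 300 bases were in peaks of both P3 lists in 48 of the 72 windows, and in 38 of these no base was called earlier. In 2 windows no base was called in either P3 list although the rest of the bin was.

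Most P3-only runs were short. Runs of 1 kb numbered 9129 (79.9%), runs of 2 kb 1706, and runs of at least 3 kb 590 (5.16%). Only 20 runs reached 6 kb and 8 reached 7 kb, and the longest was 9 kb. The same rule applied to the other stages gave 5346 bins at E13.5 only (0.223% of all bins), 13251 at E16.5 only (0.553%) and 11053 at P0 only (0.461%). As a share of the bins called in both lists of the stage, these were 3.75%, 5.32% and 4.24%, against 6.26% at P3. Runs of at least 3 kb made up 4.91% of runs at E13.5 only, 7.86% at E16.5 only and 3.57% at P0 only. The P3-only runs thus lay between those of E16.5 and P0 in length.

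**Figure D1:**
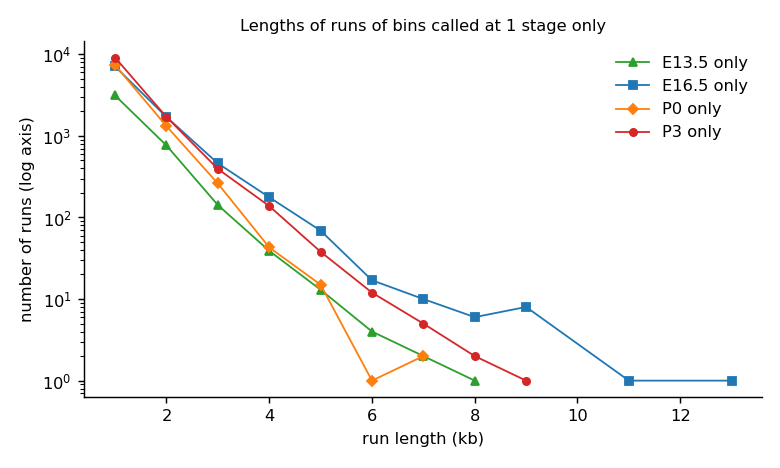
Number of runs (y axis, log scale) against run length in kb (x axis) for bins called at 1 stage only, 1 line per stage. The P3-only runs end at 9 kb, the E13.5-only runs at 8 kb, the P0-only runs at 7 kb and the E16.5-only runs at 13 kb.

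P3-only bins occurred on every autosome at similar density. There were between 4.89 and 7.62 of them per 1000 bins, lowest on chromosome 12 and highest on chromosome 18. They outnumbered P0-only bins on 18 of 19 autosomes, chromosome 3 being the exception.

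P3-only bins lay in gene bodies more often than other bins called after birth. The midpoint of 50.9% of them fell in a protein-coding gene body, against 22.7% of P0-only bins and 21.6% of P3 bins that had been called earlier. Among P3 bins called earlier, those in all 4 P0 and P3 lists and in no embryonic list were nearer, at 32.5%. All autosomal bins, assembly gaps included, gave 41.0%. Over the autosomes the share of P3-only bins ranged from 42.8% to 57.8%, that of P0-only bins from 17.0% to 27.8% and that of P3 bins called earlier from 15.6% to 26.8%. The P3-only share was above each of the other 2, and above that of all bins, on 19 of 19 autosomes. Autosomes are not replicates, and no test was made. A high share was not limited to P3: E13.5-only bins gave 45.9%, with a range of 30.7% to 57.8% that overlaps the P3 range, while E16.5-only bins gave 19%.

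**Figure D2:**
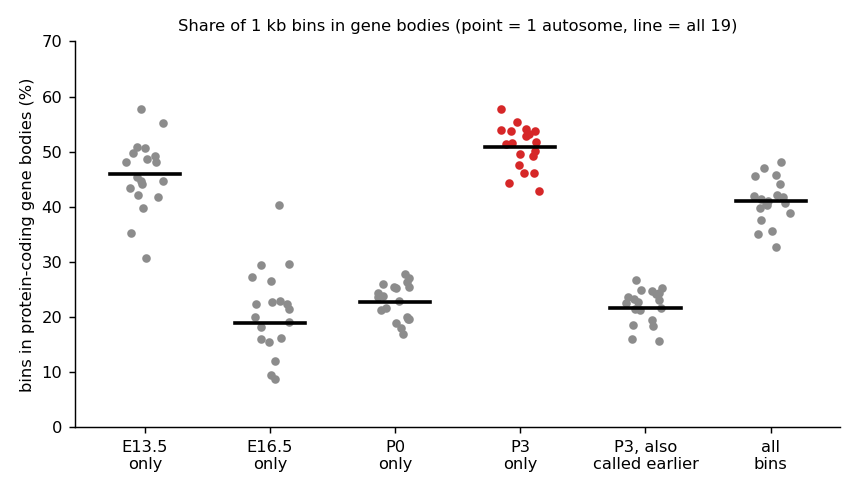
Percent of 1 kb bins with their midpoint in a protein-coding gene body (y axis) for 6 sets of bins (x axis). Each point is 1 autosome and each line the value over all 19. The P3-only points (red) lie between 42.8% and 57.8%, above all P0-only points, and overlap the E13.5-only points.

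P3-only bins outside genes were also nearer to them. The median distance from a bin outside gene bodies to the nearest protein-coding gene was 62.7 kb for P3-only bins, 107.0 kb for P0-only bins, 394.6 kb for E16.5-only bins, 34.7 kb for E13.5-only bins and 82.5 kb for all bins. The surroundings were gene-rich as well. Gene bodies filled on average 47.8% of the megabase around a P3-only bin, 33.9% around a P0-only bin and 40.9% around any bin. For bins in all 4 P0 and P3 lists and in no embryonic list, this share was 41.7% and the median distance was 75.3 kb. A further 7.73% of P3-only bins lay in lncRNA genes outside coding genes, close to the 7.1% of all bins. It was 7.04% for P0-only bins and 8.68% for E13.5-only bins.

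At gene ends the share of P3-only bins was also above that of the other postnatal sets, but not above that of all bins. Here a bin counted when it touched a 1 kb window centred on either end of a protein-coding gene. This held for 397 P3-only bins (2.72%), against 1.13% of P0-only bins, 1.56% of P3 bins called earlier, 3.09% of all bins and 8.02% of E13.5-only bins. The bins of P3 only and of E13.5 only, whose gene-body shares overlapped over the autosomes, thus lay on opposite sides of all bins at gene ends. Within the 10757 genes that span at least 10 bins, P3-only bins were fewest near the start. With each gene body cut into 5 equal segments from 5′ to 3′, the first held 935 of 5653 such bins, the following 3 held 19.3%, 20.8% and 20.3%, and the segment at the 3′ end held 1305 (23.1%). P3 bins called earlier were also fewest in the first segment, with 6028 of 35559, and reached 21.2% in the last. P0-only bins were nearly even, with 357 of 1879 in the first segment and 360 in the last.

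Many P3-only runs continued a domain called earlier. Of the 11425 runs, 8430 (73.8%) touched a bin called in an earlier list, 730 of them (6.39% of all) on both sides and 7700 (67.4%) on 1 side. That share was close to the 70.7% of P0-only runs and 69% of E16.5-only runs that touched a bin called at another stage, and above the 49% of E13.5-only runs. Of the touching runs, 89.0% adjoined a bin of the P0 KO list and 72.4% a bin of the P0 het list. E16.5 het bins were adjoined by 36.9%, E16.5 KO bins by 33.4%, E13.5 KO bins by 13.7% and E13.5 het bins by 10.7%. The other 2995 runs (26.2%) stood alone. Their median distance to the nearest earlier call was 7 kb (quartiles 3 and 15 kb, largest 118 kb), and 1244 of them (41.5%) were at least 10 kb away.

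The gene-body share was highest in the runs that stood alone. It was 34.6% for bins of runs between 2 earlier-called bins, 49% for runs beside 1, and 60.3% for runs beside none. P0-only runs showed the same order at lower values, 12.2%, 22.7% and 27.7%. With run length the sets went opposite ways. In P3-only runs of 1 kb, 2 kb and at least 3 kb, 49.2%, 51.6% and 57.3% of bins were in gene bodies, while P0-only runs gave 24.8%, 19.7% and 15.5%.

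**Figure D3:**
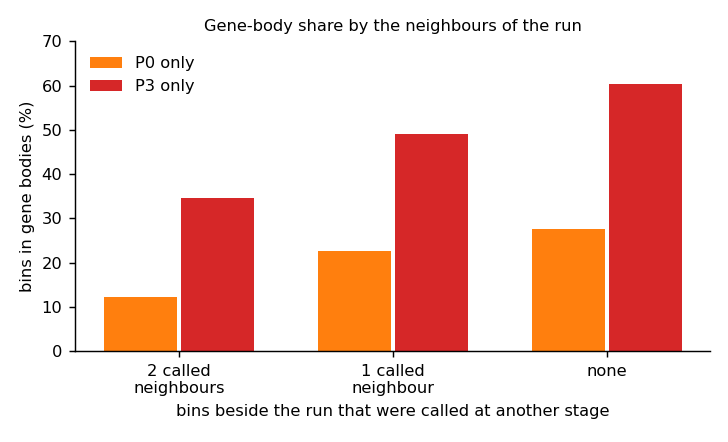
Percent of bins in protein-coding gene bodies (y axis) for P0-only and P3-only runs, by how many of the bins directly beside the run were called at another stage (x axis). The P3-only bars read 34.6%, 49% and 60.3%, each above the P0-only bar beside it.

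Many bins had some earlier peak below the 50% threshold. No base of an earlier peak was present in 7863 P3-only bins (53.9%). Any base of an E13.5 het peak was in 2.29% of them and of an E13.5 KO peak in 3.14%. For the E16.5 lists the shares were 11.1% in het and 9.16% in KO, and for the P0 lists 25.3% and 38.0%. Such traces thus grew more frequent toward P3 and were most frequent in P0 KO. The mean called length per bin was 4.94 bp in E13.5 het, 7.26 bp in E13.5 KO, 26.6 bp in E16.5 het, 20 bp in E16.5 KO, 61.3 bp in P0 het and 104.9 bp in P0 KO, and then 857.4 bp in P3 het and 889.4 bp in P3 KO.

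The P0 KO list removed more bins from the set than any other. Bins called in both P3 lists and in P0 KO, but in no other earlier list, numbered 8306, and 43.0% of them were in gene bodies. P0 het alone removed 2563 bins, with 27.5% in gene bodies. The corresponding counts were 758 for E16.5 het, 330 for E16.5 KO, 263 for E13.5 KO and 126 for E13.5 het. Without the P0 KO list the set would hold 22903 bins, of which 48.0% are in gene bodies. P0 KO was the largest of the 8 lists, with 93523 peaks against 86812 in P0 het, and the part of list size in this difference was not tested.

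**Figure D4:**
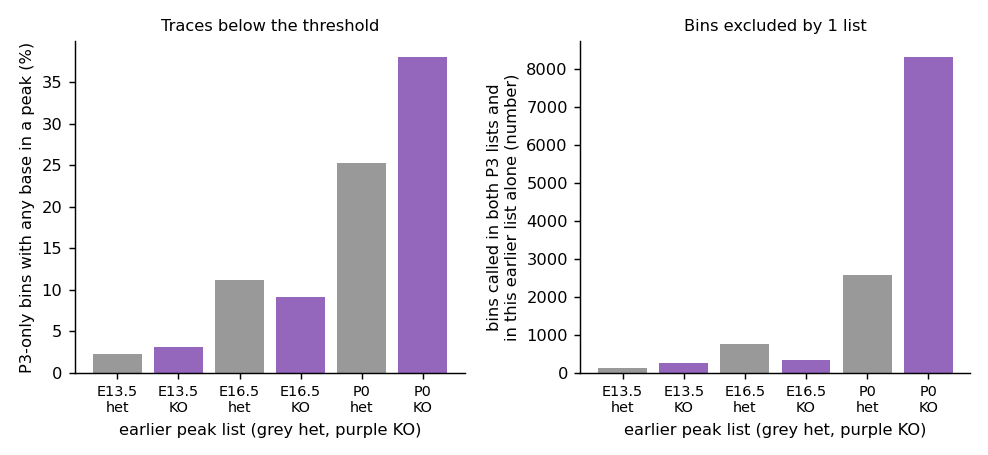
Left, percent of P3-only bins that hold any base of a peak (y axis) of each earlier list (x axis). Right, number of bins (y axis) called in both P3 lists and in that earlier list alone. Grey bars are het and purple bars KO; the P0 KO bars are highest, at 38.0% and 8306 bins.

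Values around the threshold showed no gap. Of the P3-only bins, 2570 (17.6%) had 50 to 59% of their length called in the lower of the 2 P3 lists, and 2115 had 40 to 49% called in the highest earlier list. Just outside the rule, 3428 bins had 40 to 49% in the lower P3 list and no earlier call, and 2869 were called in both P3 lists with 50 to 59% in the highest earlier list. At the clear end, 5445 (37.3%) were wholly called in both P3 lists, and 3200 of these had no earlier base.

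Het and KO shared a smaller part of the bins called at P3 and at no other stage than of all bins called at P3. Over all autosomal bins, the 233216 in both P3 lists were 83.8% of the het bins and 76.8% of the KO bins. The P3 het list held 23568 such bins and the P3 KO list 36713, and the 14597 in both were 61.9% of the het bins and 39.8% of the KO bins. At P0 the bins of that stage alone overlapped less in het terms, 43.7% of 25277 het bins and 37.3% of 29669 KO bins. Over all autosomal bins called at P0, the shared bins were 84.5% of the het bins and 80.5% of the KO bins. Bins first called at P3 in 1 genotype leaned to gene bodies less than the shared ones, with 39.7% of 8971 het-only bins and 46.1% of 22116 KO-only bins.

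Whole new peaks were compared as well, at the level of single calls. A P3 peak with no base in any earlier list was found 5241 times in het (6.75% of the autosomal peaks of that list) and 7537 times in KO (9.13%). Of these, 2958 overlapped 1 to 1 between the genotypes, 56.4% of the new het peaks and 39.2% of the new KO peaks, and 59% of the pairs lay in gene bodies. Their median length was 1291 bp in het and 1533 bp in KO, and 36.6% of the het members had the shortest length in the list, 1001 bp. Paired edges lay a median of 216 bp apart, and 304 bp apart in the pairs with both peaks of at least 3 kb. The KO peak was the longer in 1522 pairs and the het peak in 963. Pair shares over all P3 peaks are not given here, so whether 56.4% and 39.2% are low cannot be told.

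In the values for runs and genes that follow, the first of an unmarked pair is het and the second KO. The longest run lay in Extl3, which encodes an exostosin-like glycosyltransferase of heparan sulfate synthesis. It covered 9 kb of chromosome 14 (65086001 to 65095000, mm10), and no base of it was called in any of the 6 earlier lists. At P3 a single peak spanned it in each genotype, from 65085611 to 65095059 in het and from 65085735 to 65095837 in KO. The edges of the 2 calls thus fell within 1 kb of each other. Exon positions were not used here, so runs in genes cannot be assigned to exons or introns.

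Of the other 9 longest runs, 5 were also in genes. A 7 kb run on chromosome 12 (53798001 to 53805000) lay in Npas3, a bHLH-PAS transcription factor gene, with no earlier base. At P3, het peaks covered 6.82 kb of it and KO peaks 6.61 kb. A 7 kb run on chromosome 17 (64681001 to 64688000) lay in Man2a1, which encodes Golgi alpha-mannosidase II, again with no earlier base, and 6.78 kb and 7 kb called at P3. A 7 kb run in Kdelr2 on chromosome 5 (143409001 to 143416000) was called over 0.272 kb (het) and 0.304 kb (KO) at P0 and over 6.53 kb (het) and 7 kb (KO) at P3. Runs of 6 kb on chromosome 1 lay in Rfx8 (39711001 to 39717000), of the RFX transcription factor family, and in Atp2b4 (133737001 to 133743000), a plasma membrane calcium pump gene. In those 2 runs the only earlier bases were in P0 KO, 0.316 kb and 0.243 kb. None of the genic runs had a base in an E13.5 or E16.5 peak.

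The remaining 4 of the 10 lay between genes. An 8 kb run on chromosome 6 (145675001 to 145683000), between Tuba3b and Rassf8, was called over all 8 kb in both P3 lists and over 0.475 kb in P0 het. An 8 kb run on chromosome 15 (27403001 to 27411000), between Fbxl7 and Ank, had 0.494 kb in E16.5 KO and 7.5 kb and 7.67 kb at P3. A 7 kb run on chromosome 2 (124855001 to 124862000), between Sema6d and Slc24a5, had 0.228 kb in P0 KO. The 7 kb run between Nxnl2 and S1pr3 on chromosome 13 (51280001 to 51287000) sat inside a much longer P3 peak, of 27.4 kb in het and 18.7 kb in KO, with earlier-called bins on both sides. The run between Tuba3b and Rassf8 also had earlier-called bins on both sides, inside P3 peaks of 12.7 kb in het and 12.8 kb in KO, whereas the Extl3 and Npas3 runs touched no earlier call. There were 12 runs of 6 kb, and the 2 named are the first in chromosome order.

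P3-only bins reached 3444 of 20665 autosomal protein-coding genes (16.7%). Most of these had few: 1710 genes held 1 bin, 302 held at least 5 and 40 at least 10. In 677 of the 3444 (19.7%), all the bins called in both P3 lists were P3-only, so the gene had no shared P3 call elsewhere in its body. Long genes, which offer more bins, were reached more often. Of genes under 10 kb, 1.99% held a P3-only bin, against 9.06% at 10 to 30 kb, 26.3% at 30 to 100 kb, 56.8% at 100 to 300 kb and 83.9% at 300 kb or more. Per 1000 gene-body bins the density varied less, 7.07, 7.30, 8.83, 8.10 and 5.91 in the same order. P0-only bins instead became denser with gene length, from 1.20 to 3.42 per 1000.

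St6galnac3, a sialyltransferase gene of 526.9 kb, held the most P3-only bins, 35. The length called in its body was 16, 30 and 32.7 kb in het at E13.5, E16.5 and P0 and 24.6, 27.3 and 54.4 kb in KO. At P3 it was 93.9 kb in het and 107 kb in KO. As in the other genes of this and the following paragraphs, the P3-only bins by which the gene was chosen add to the P3 lengths alone, so the higher P3 length is a description. Of its bins, 86 were called in both P3 lists, and 1 was P0-only.

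The next were Atrnl1, an attractin-like receptor gene, with 23 bins, Rbms3, an RNA-binding protein gene, with 20, and Fhit, a hydrolase gene at a fragile site, with 17. Atrnl1 had at most 49 kb called in an earlier list and reached 65.4 kb (het) and 74.4 kb (KO) at P3. In Fhit the new bins stood beside a large called territory, 225 kb (het) and 255 kb (KO) at P0 against 221 kb (het) and 273 kb (KO) at P3, so the total did not separate the stages. Rbms3 was similar, with 88.2 kb in P0 KO between the P3 values of 80.3 and 99.9 kb. Agap1, an Arf GTPase-activating protein gene, and Pdzd2, a PDZ domain gene, had 16 each. In Agap1 the called length was 5.47 kb in P0 het and 10.5 kb in P0 KO, and 31.2 kb and 38.6 kb at P3. Dst, which encodes the cytoskeletal linker dystonin, had 15, and Adamts12, Dpp6, Smyd3 and Ttc28 had 13.

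The last of the 15 listed genes, Asb3, E2f3 and Kcnab2, had 12 bins each, in bodies of 148.3, 79.5 and 86.8 kb. They were not the only genes with 12: Kdelr2 had as many in 18.1 kb and Sox5 in 953.9 kb. E2f3, which encodes a cell cycle transcription factor, was called over 1.25 kb (het) and 1.68 kb (KO) for E13.5, 1.29 kb and 1.26 kb for E16.5, 2.79 kb and 9.09 kb for P0, and 21.8 kb and 20.7 kb for P3. Kcnab2, a potassium channel beta subunit gene, had 1.64 kb (het) and 2.35 kb (KO) for E13.5, 3 kb and 1 kb for E16.5, 3.53 kb and 7.91 kb for P0, and 20.5 kb and 21.5 kb for P3. In both, the 6 earlier lists were low, P0 KO was the highest of them and the 2 P3 lists were alike. Asb3, a SOCS box protein gene, differed, with 32 to 32.8 kb called at P0 and 40.3 to 43.6 kb at P3.

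Among genes of at least 10 kb, Kdelr2 had the largest part of its body in P3-only bins, 66.4% (12 of 18 bins). It encodes a receptor that returns escaped chaperones from the Golgi to the endoplasmic reticulum. Of its 18.1 kb, no base was called in the 4 embryonic lists, while P0 peaks covered 1.25 kb (het) and 1.28 kb (KO) and P3 peaks 12.3 kb (het) and 13.0 kb (KO). A single P3 peak covered most of the gene in each genotype, 12.3 kb long in het and 18.6 kb in KO.

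The other 9 of these genes differed in how much had been called earlier, from no base in Zfp113 to 26.0% of the body of Cyp4f15 and 27.7% of that of Sstr3. Leprot, which encodes a small endosomal membrane protein and had 43.2% of its body in P3-only bins, had no embryonic call, 1 kb and 1.56 kb for P0 and 6.08 kb and 5.87 kb for P3 in het and KO. Zfp113, a zinc finger gene (31.2%), had no call in any earlier list and 6.70 and 5.21 kb at P3. Sh3d21, an SH3 domain gene (31.0%), had 1 kb in each E13.5 list, none at E16.5 or P0, and 7.04 and 4.46 kb at P3. Zfp113 and Sh3d21 thus had a larger called length in het, while Selenof, an endoplasmic reticulum selenoprotein gene (29.4%), had 9.34 kb in het and 12.8 kb in KO. Cyp4f15, a cytochrome P450 gene (28.2%), had the most earlier coverage of the group in kb, up to 4.61 kb in P0 KO, and 11.8 and 11.5 kb at P3. Tmem43, an inner nuclear membrane protein gene (27.1%), Vasn, which encodes the TGF-beta-binding protein vasorin (26.7%), Cacfd1 (26.7%) and the somatostatin receptor gene Sstr3 (24.3%) completed it. In Sstr3 the P0 values were 1 kb in het and 3.43 kb in KO, against 6.90 and 6.05 kb at P3.

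**Figure D5:**
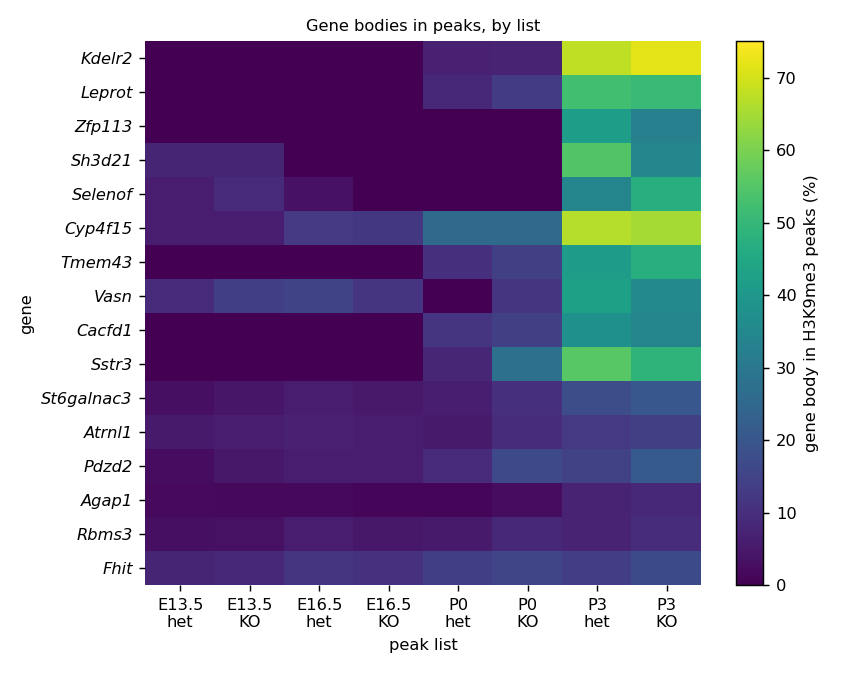
Percent of the gene body in H3K9me3 peaks (colour) for 16 genes (rows) in the 8 lists (columns): the 10 genes with the largest part of their body in P3-only bins, then the 6 with the most such bins, in order of that part. Kdelr2 goes from at most 7.07% in an earlier list to 68.0% in P3 het and 71.8% in P3 KO, while Fhit reaches 15.8% in an earlier list and 13.7% and 16.9% at P3.

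Runs at gene ends were few but some were long. Of all runs, 343 (3%) touched the 1 kb window at an end of a protein-coding gene, and 366 genes had such a window with a P3-only bin. The 5 longest, of 5 kb, were at Selenof, Ppp1r8, which encodes a nuclear inhibitor of protein phosphatase 1, Kdelr2, Tuba3b, an alpha-tubulin gene, and Azin1, which encodes the antizyme inhibitor of polyamine synthesis. At Ppp1r8 (chromosome 4, 132822001 to 132827000) no base was called earlier, and P3 peaks covered 4.91 kb (het) and 5 kb (KO). The Azin1 run (chromosome 15, 38487001 to 38492000) had 0.095 kb in P0 KO and, at P3, 5 kb (het) and 4.55 kb (KO). Runs of 4 kb followed at the shared end of Ntmt1 and Asb6 and at Wdr3, Acadm, Sytl1 and Git2. Acadm encodes the medium-chain acyl-CoA dehydrogenase, and its run (chromosome 3, 153920001 to 153924000) had no earlier base and P3 peaks over 3.72 kb (het) and 3.96 kb (KO). Of the 10 end runs, only those at Tuba3b, Azin1 and Wdr3 had any base in an earlier list, at most 0.291 kb.

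Genes of the germ line were examined as lists, each set beside all genes in the length class of the list's median gene; lengths within a list vary around it. Of 54 germline and meiosis genes with a median length of 39.4 kb, 16 (29.6%, upper bound of the 95% Wilson interval 42.8%) held a P3-only bin, against 26.3% of all genes of 30 to 100 kb. Their bodies had 11.9 P3-only bins per 1000 bins, against 8.83 in genes of 30 to 100 kb and 7.51 in all genes. Mov10l1, the piRNA pathway helicase gene, had 6, although 22 of its bins were called in both P3 lists and 15.1 to 15.8 kb were called at P0. Msh4, a meiotic crossover gene, had 4, with at most 2.04 kb in an earlier list and 6.90 and 7.10 kb at P3. Sycp1, which encodes the transverse filament of the synaptonemal complex, had 4, with 8.45 kb and 7.26 kb for P0 and 11.2 kb and 11.7 kb for P3. Tex19.1, a germ cell gene with a part in transposon control, had a P3-only bin at an end, no earlier call, and 1.48 and 1.20 kb at P3.

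Of 32 spermatogonial genes (median 17.0 kb), 6 (18.8%, interval 8.89 to 35.3%) held a P3-only bin, against 9.06% of genes of 10 to 30 kb. Itga6, the integrin alpha 6 gene of spermatogonial stem cells, had 5 and went from at most 7.26 kb in an earlier list to 13.0 and 14.3 kb. Etv5, a transcription factor gene of stem cell renewal, had 4. It was called over 2.02 and 3.18 kb at E13.5, over no base at E16.5 or P0, and over 6.86 and 10.1 kb at P3. Foxo1, a transcription factor gene active in gonocytes, had 3, with 0 kb before birth, 2.03 kb and 2.56 kb for P0, and 5.63 kb and 8.44 kb for P3. Pax7 had a P3-only bin at an end and none in its body. Of 29 genes of somatic testis cells (median 19.7 kb), 2 (6.90%, interval 1.91 to 22.0%) held a P3-only bin, against 9.06% of genes of 10 to 30 kb. They were the leukocyte gene Ptprc and the Sertoli cell gene Wt1, with 1 bin each.

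Of 27 genes of the H3K9me3 and silencing machinery (median 38.9 kb), 9 (33.3%, interval 18.6 to 52.2%) held a P3-only bin, against 26.3% of genes of 30 to 100 kb. Ehmt1, a H3K9 methyltransferase gene, and Pphln1, which encodes the HUSH complex subunit periphilin, had 4 each. Setdb1, whose product itself writes H3K9me3, had 3 and also a P3-only bin at an end. Its 33.7 kb body was called over 1.31 kb in E13.5 het and over no base in E13.5 KO or either E16.5 list. P0 peaks covered 1.78 kb (het) and 1.71 kb (KO), and P3 peaks 5.77 kb and 6.07 kb. The intervals of these 4 lists all include the share of genes of like length, so none differed from it beyond counting error.

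Zinc finger genes of the Zfp series, many of which encode KRAB repressors of retrotransposons and carry H3K9me3 themselves, held P3-only bins in 50 of 390 cases (12.8%, lower bound of the interval 9.86%, median length 18 kb), against 9.06% of genes of 10 to 30 kb. Their density, 7.52 per 1000 body bins, was that of all genes, 7.51. Beside Zfp113, 3 short ones had P3-only bins over much of the body and at an end. Zfp574 had no earlier call and 5.02 and 3.98 kb at P3, and Zfp553 no earlier call and 3.55 and 3.65 kb. Zfp719 had 1 and 1.57 kb at E13.5, none at E16.5 or P0, and 5.40 and 3.01 kb at P3. The most bins were in Zfp704, with 6, and Zfp385b, with 5 as in Zfp113. Zfp334 and Zfp410 had a bin at an end and at most 1 kb called earlier.

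The chemoreceptor families, where H3K9me3 was dense at P3, held few P3-only bins. Bins called in both P3 lists made up 209.7 per 1000 body bins of the 1104 Olfr genes and 195.6 per 1000 of the 352 vomeronasal receptor genes, against 55.7 per 1000 in all genes. P3-only bins made up 2.83 and 0.828 per 1000, against 7.51 in all genes. Such a bin was in the body of 5 Olfr genes (0.453%), against 1.99% of all genes under 10 kb, and of 3 vomeronasal genes (0.852%). The family medians, 0.95 and 0.96 kb, are far below 10 kb, and the part of length in these shares of genes was not tested. The 3 vomeronasal genes, Vmn1r5, Vmn2r1 and Vmn2r83, were longer, 16, 142.7 and 23.2 kb. A P3-only bin touched the window at an end of 14 Olfr genes and 2 vomeronasal genes, against 366 of all 20665 genes. The 101 Cyp genes were dense at P3 as well, with 187.9 per 1000, and had 5.06 P3-only bins per 1000 in 7 genes.

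Ion channel genes and neural adhesion and synapse genes held P3-only bins in 63 of 154 cases (40.9%, interval 33.5 to 48.8%) and 47 of 102 cases (46.1%, interval 36.7 to 55.7%). The ion channel genes (median 47.4 kb) were above the 26.3% of all genes of 30 to 100 kb. Their density, 7.27 per 1000, was below the 8.83 of that class and near the 7.51 of all genes. The neural genes (median 216.7 kb) were below the 56.8% of genes of 100 to 300 kb, with a density of 3.92 per 1000 against 8.10. After Kcnab2, Cacna2d3, a calcium channel subunit gene, had 8. Of 146 developmental transcription factor genes of the Hox, Pax, Sox, Fox, Gata, Tbx, Lhx and Nkx families, 13 (8.90%, interval 5.28 to 14.6%) held a P3-only bin, against 1.99% of genes under 10 kb (list median 6.12 kb), with a density of 8.77 per 1000. The most were in Sox5 (12), Foxp1 (9) and Foxn3 (5), 3 genes far longer than that median. Of 362 Slc transporter genes (median 28.7 kb) 75 (20.7%) held a P3-only bin, and of 62 Serpin genes (median 11.1 kb) 4 (6.45%). Genes of 10 to 30 kb gave 9.06%. The Slc median is near the upper edge of that class, and genes of 30 to 100 kb gave 26.3%. The Serpin median is near its lower edge, and genes under 10 kb gave 1.99%. The densities ran the other way, 5.86 per 1000 in Slc genes and 11.1 in Serpin genes. Of 67 protocadherin genes (median 86.1 kb) 1 held a P3-only bin, Pcdh15 with 6, against 26.3% of genes of 30 to 100 kb. The density was 0.729 per 1000. A bin in overlapping gene bodies counts for each of the genes, so genes that share bins are not separate observations. The part of such overlap in the protocadherin values was not tested.

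P3-only bins gathered in some places. The autosomes were divided into 12309 windows of 200 kb, a measure chosen after the values above were seen. No P3-only bin was in 6011 windows (48.8%), while 49 windows held at least 10, against 7 windows with at least 10 P0-only bins. The fullest, in St6galnac3 on chromosome 3 (153600001 to 153800000), held 22. The number of bins called in that window was 9 and 15 at E13.5 in het and KO, 18 and 17 at E16.5, 19 and 30 at P0, and 50 and 61 at P3. Windows with 19 each contained Kcnab2 and Nphp4 on chromosome 4, Cdkal1 and E2f3 on chromosome 13, and Odf1 and Klf10 on chromosome 15. A window without a protein-coding gene on chromosome 9 (32800001 to 33000000) held 18, with 43 and 57 bins called at P0 and 70 and 76 at P3. These windows were picked for their P3-only bins, so their higher P3 counts restate the choice. Of 919 annotated miRNA hairpins, 53 lay in bins called in both P3 lists and 5 of these in P3-only bins, Mir704, Mir7078, Mir7213, Mir6961 and Mir6962. Of all autosomal bins, 9.73% were called in both P3 lists and 0.609% were P3-only, so hairpins were not more frequent in either than bins at large.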

How the data were processed

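Per the labels, the 16 H3K9me3 samples form 8 groups of 2 (4 stages, 2 genotypes), and the authors deposited 1 peak list per group with chromosome, start and end in base pairs. Whether the 2 samples were pooled before peak calling, the caller's settings and the use of the H3 libraries are not given in the sources used here, so each list was taken as 1 pooled call set. The submitters' processing notes name the build mm10 and the tools bcl2fastq 2.20, cutadapt 1.18, Bowtie2 2.3.4.1, deepTools 3.5.0 and HOMER 4.10, without roles. Read depth is unknown, and a list from deeper reads or a looser threshold would call more bins.

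Bins of 1 kb were counted from position 0 of chromosomes 1 to 19 (Python 3.11.15, numpy 2.4.6, pandas 2.3.3), and printed coordinates are 1-based. Genes, promoters and miRNA hairpins came from RefSeq tables of GRCm38.p6, matched by position. A bin was in a gene by its midpoint, and families were taken by the start of the symbol. With 1 list per group no p-value was computed, and 95% Wilson intervals cover counting error only and treat genes as independent. The calculation was tested on simulated peaks with known answers.

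The rule, the gene lists and the alternatives were chosen with earlier results of these data known. Named genes are the 10 longest runs, the 15 genes with the most P3-only bins, the 10 genes of at least 10 kb with the largest part of the body in them, listed genes among the top 3 of their list or with a bin at an end (examples only for the large families), the 10 longest runs at gene ends and up to 5 promoter windows, longest run first. A few genes that the rule names are not reported here. Alternatives changed the bin, the share called, the peaks used and the lists required.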

Additional observations from a re-analysis of the deposited data

How the results depend on the processing

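No paired analysis was possible because each group has 1 list. In all 8 settings in which both were computed, the share of P3-only bins in gene bodies stayed above that of P0-only bins. The values below are those that left the 95% interval of the reported share, or for counts a factor of 1.5, and beyond what an alternative selects by construction the cause was not tested.

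Requiring 25% of the bin in peaks gave 5.92% of P3 bins, 6.28% of runs of at least 3 kb, 72.3% of bins without an earlier base and 52.3% in gene bodies. Requiring 75% gave 6.65%, 6.55%, 39.9% and 49.7%, with 72.2% of runs touching an earlier call. Shifting bins by 500 bp gave 54.9% without an earlier base. Bins of 2 kb gave 7202 bins in 6616 runs, 7.87% of runs of at least 3 kb, 39.8% without an earlier base, 58.1% touching, 51.7% in gene bodies and 4.11% at gene ends.

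Allowing no base of an earlier peak left 7863 bins in 5775 runs, 3.37% of P3 bins, with 6.70% of runs of at least 3 kb, 36.5% touching and 55.9% in gene bodies; the share without an earlier base is then complete by construction. With the 52628 longest peaks of each list the values were 6.92% of P3 bins, 18.2% of runs of at least 3 kb, 70.4% without an earlier base and 66.9% touching. Without peaks of 1001 bp or shorter, 7.37% of runs reached 3 kb, 59.1% of bins had no earlier base and 71.9% of runs touched.

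P3 het against the earlier het lists alone gave 34705 bins in 25432 runs, 12.5% of its P3 bins, 7.24% of runs of at least 3 kb, 62.1% without an earlier base, 69.0% touching and 45.2% in gene bodies. P3 KO against the earlier KO lists gave 43437 bins in 32235 runs, 14.3%, 6.91%, 58.5% and 44.8% in gene bodies, with 2.29% at gene ends. Flanks of 5 kb raised the gene-body share to 55.8%, and a 5 kb window raised the gene-end share to 7.89%.

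Leaving out 1 earlier list was added after the data were seen. The gene-body share was 50% without E16.5 het, 47.4% without P0 het and 48.0% without P0 KO, and the number of bins was 22903 without P0 KO.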

Other observations

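The X chromosome, which the rule leaves out, went the other way from the autosomes. Of 6990 X bins called in both P3 lists, 81 (1.16%) were called in no earlier list, against 6.26% on the autosomes. They formed 73 runs of at most 3 kb. The X shares at the other stages were 8.23% of 12248 bins at P0, 6.27% of 11810 bins at E16.5 and 3.05% of 5369 bins at E13.5, so P3 had the lowest share of the 4 stages on the X and the highest on the autosomes. The male germ cell has a single X, and the part of copy number or of depth in these counts was not tested.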
